A study of Mus musculus with 48 samples.

Results

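RNA of the cerebral cortex was compared between 4 B6 females that inhaled nPM and 4 that inhaled filtered air, 8 of the 48 mice sequenced in the series. B6 (C57BL/6J) is an inbred wild type strain that carries no transgene, and nPM is a nano-sized fraction of urban particulate matter that was re-aerosolized into the exposure chambers. Both groups were labelled as 4 months old and spent 5 h per day on 3 days per week in the chambers for 8 weeks. The animals are named by their numbers, control mice 40 to 43 and nPM mice 50 to 53. The members of the comparison were the genes with reads in each of the 8 mice, 14725 of 27086 listed genes, with 4 entries of repeated symbols set aside. The other 8 B6 mice are males of the same exposure, and the *APOE*-TR mice, in which a human *APOE* allele replaces the mouse gene, had a separate exposure of 15 weeks and are labelled as 6 months old.

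Inhaled ultrafine particles can reach the brain through the nose and the circulation, or act on it indirectly through the signals of an inflamed lung. Glia and neurons can respond with oxidative stress and inflammatory signalling. NRF2, encoded by *Nfe2l2*, is the factor that raises antioxidant and phase II enzymes, and NFKB is a family of factors that raises cytokine and survival genes. In the cortex, excitatory neurons signal through AMPA and NMDA receptors, whose obligatory NMDA subunit is encoded by *Grin1*, and inhibitory neurons signal through GABA-A receptors. The cortex of these mice is a bulk tissue, in which fewer cells of a type and less RNA per cell cannot be told apart.

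The label of sex and genotype held in each mouse. *Xist*, the RNA of the inactive X chromosome, read 179 to 331 CPM (counts scaled to a common library size, as deposited by the authors), *Ddx3y* of the Y chromosome stood at the lowest value of every column, and mouse *Apoe* read 164 to 437 CPM. Reads estimated from the lowest value of a column ranged from 6.21 M to 24.4 M in control mice and from 4.83 M to 16.5 M in nPM mice, and nPM mouse 53 was the shallowest. The nPM mice varied more than the controls. Correlations of log2 values were 0.949 to 0.976 between control mice and 0.880 to 0.946 between nPM mice, and the median SD of a gene was 0.45 on the log2 scale with nPM against 0.29 in controls. The nPM mice 50 and 51 had 9282 and 10336 genes without reads, against 4977 to 7556 in the controls and 7023 and 6230 in nPM mice 52 and 53.

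At an unadjusted p under 0.005 (limma, 4 mice against 4), 174 genes were differentially expressed genes (DEGs), 105 increased and 69 decreased with nPM. They were 0.713% and 0.469% of the 14725 genes tested, where 74 DEGs would be called at this threshold if no gene differed. Only *AY036118* passed 5% FDR, with an adjusted p of 0.0177 from limma, and the other DEGs had adjusted p-values, all from limma over these genes, between 0.265 and 0.384. In the 8 fits that left out 1 mouse, no gene passed 5% FDR without control 40, 41, 42 or 43 or nPM 51 or 52, while *AY036118* kept an unadjusted p under 0.005 in all 8. The split between increased and decreased DEGs rested on the TMM scaling, since the values as deposited gave 80 increased and 105 decreased. It also turned with the slope of level on transcript GC content in each mouse as a covariate, to 53 and 95, and without nPM mouse 52, to 80 and 85. Without nPM mice 50 and 51, a fit chosen after the data were examined, the DEGs numbered 542 (275 increased, 267 decreased), and 99 of them were among the 174. Leaving out 1 mouse gave 78 DEGs without control 40, 82 without control 41, 90 without control 42 and 322 without nPM 50. The DEGs were mostly protein coding, 92 of the 105 and 58 of the 69. The groups did not overlap in any mouse for 87 of the increased and 62 of the decreased DEGs, a count fixed in large part by the same contrast, where 3.19% of all genes had all nPM mice above and 3.24% had all nPM mice below the controls.

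What the DEGs shared, beyond the contrast that chose them, was the base composition of their transcripts. The longest annotated transcript (GENCODE, GRCm38) of increased DEGs had a median GC content of 57.3% (quartiles 54.1% and 59.4%), that of decreased DEGs 42.1% (quartiles 40.4% and 45.9%), and that of the other genes 49.7% (quartiles 45.3% and 54.2%). Stretches of coding sequence of 5 named DEGs, 3 that increased and then 2 that decreased, are printed to show this contrast, as 90 bases of 1 exon chosen so that their GC content was closest to that of the transcript they were taken from. They read 5′ to 3′ on the gene's own strand, from GENCODE transcripts (GRCm38), with each G and C in capitals.
*Cacnb1* exon 3, chr11:98016726-98016815, minus strand: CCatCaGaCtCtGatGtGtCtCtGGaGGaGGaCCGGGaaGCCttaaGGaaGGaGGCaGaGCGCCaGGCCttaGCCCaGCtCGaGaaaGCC
*Mink1* exon 7, chr11:70602690-70602779, plus strand: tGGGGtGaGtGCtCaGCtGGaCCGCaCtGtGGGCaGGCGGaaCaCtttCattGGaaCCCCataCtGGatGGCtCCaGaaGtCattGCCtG
*Grin1* exon 1, chr2:25318707-25318796, minus strand: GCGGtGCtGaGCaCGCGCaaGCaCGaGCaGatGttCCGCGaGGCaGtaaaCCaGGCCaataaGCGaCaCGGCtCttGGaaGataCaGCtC
*Ube3a* exon 5, chr7:59272022-59272111, plus strand: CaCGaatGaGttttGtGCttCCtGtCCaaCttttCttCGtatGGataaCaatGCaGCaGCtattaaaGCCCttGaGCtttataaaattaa
*Yaf2* exon 4, chr15:93285522-93285611, minus strand: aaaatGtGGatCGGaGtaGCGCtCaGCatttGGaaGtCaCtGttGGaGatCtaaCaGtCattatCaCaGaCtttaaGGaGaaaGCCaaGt
The longest transcripts of *Cacnb1* and *Grin1* had 59.7% and 59.4% GC, and those of *Ube3a* and *Yaf2* had 36.9% and 45.6%. The *Yaf2* exon was taken from a shorter transcript of 1676 bases with 42.3% GC.

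When the 14623 genes with a known transcript were split into 5 groups of about equal size by GC content, increased DEGs numbered 0, 6, 7, 18 and 74 from the lowest to the highest group, and decreased DEGs 41, 15, 7, 3 and 0. The median log2 change of all genes rose from group to group, from −0.21 to −0.12, −0.05, 0.11 and 0.29. The trend thus ran through all genes tested, most of which were no DEGs. Transcript length had medians of 2786 bases in increased and 4028.5 bases in decreased DEGs against 2906 bases in the others, so decreased DEGs were also longer.

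**Figure D1:**
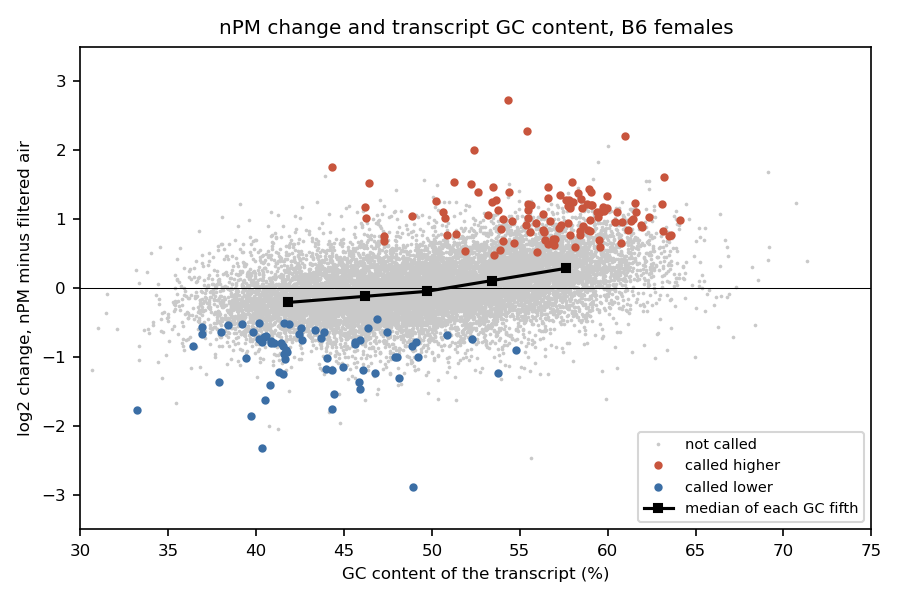
GC content of the longest annotated transcript (%, x axis) against the log2 change of nPM minus filtered air (y axis) for each gene tested in B6 females (4 mice against 4), with increased DEGs in red, decreased DEGs in blue, other genes in grey, and the median of each of 5 GC groups as black squares at the group's median GC content. The medians climb from −0.21 to 0.29, and 74 of the 105 increased DEGs lie in the highest group.

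The slope of log2 level on GC content was then taken in each mouse, relative to the mean of the 8 mice and with transcript length as a second term. It was −0.18, −0.16, −0.24 and −0.02 log2 units per 10 points of GC in control mice 40, 41, 42 and 43. It was −0.06, 0.13, 0.33 and 0.20 in nPM mice 50, 51, 52 and 53. The nPM mice 51, 52 and 53 stood above all controls, and nPM mouse 50 fell below control mouse 43, so that the groups overlapped (exact permutation p = 0.0571, two-sided, over 70 labelings, whose smallest p is 0.0286). The slope on log2 length lay between −0.03 and 0.02 in all 8 mice.

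The calls were recomputed after the smooth trend with GC content had been taken out of each mouse, an alternative chosen after the data were examined. The DEGs then numbered 101 (56 increased, 45 decreased), and 56 of the 174 were among them. All 105 increased and all 69 decreased DEGs kept their sign, with medians that went from 1.03 to 0.79 and from −0.84 to −0.71 on the log2 scale. From the lowest to the highest GC group, the increased genes called in that fit numbered 11, 15, 10, 9 and 11. The decreased genes called in it numbered 6, 7, 4, 11 and 14, most in the highest group. The trend had been taken out of that fit, so these counts do not test it. With the GC slope of each mouse as a covariate instead, also chosen after the data were examined, 148 genes were called, 16 of them among the 174, and of 32 genes followed by name 5 were called.

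The increased DEG with the smallest p came from the ribosomal RNA region of chromosome 17. *AY036118* (chromosome 17 from 39847113 to 39848036, mm10), listed as a long noncoding RNA, read 171, 138, 181 and 181 CPM in control mice 40 to 43 and 352, 521, 507 and 348 CPM in nPM mice 50 to 53. All 4 nPM mice were above all 4 controls, and the log2 change was 1.39 ± 0.17 (SE, adjusted p = 0.0177), adjusted p = 0.0177. *CT010467.1* (chromosome 17 from 39846353 to 39848828), a listed rRNA gene that spans *AY036118*, read 215, 202, 294 and 593 CPM in control mice 40 to 43 and 519, 2669, 2726 and 992 CPM in nPM mice 50 to 53. Control mouse 43 exceeded nPM mouse 50, so the groups overlapped, and the log2 change was 2.28 ± 0.47 (SE, adjusted p = 0.265). Because these genes overlap, reads of one cannot be told from reads of the other. *Gm26917*, next to them, read 1.32, 1.15, 3.26 and 4.56 CPM in control mice 40 to 43 and 6.14, 16.2, 12.8 and 3.25 CPM in nPM mice 50 to 53, and the groups overlapped (1.69 ± 0.51 SE, adjusted p = 0.384, no DEG). With *Gm42418* added, this region took 0.0529% to 0.124% of the summed values in controls and 0.161% to 0.594% in nPM mice, which did not overlap (exact permutation p = 0.0286, the smallest possible). Messenger RNA libraries are made to leave rRNA out, and the part of this difference in the other results was not tested. Leaving out this region and other structured RNAs before scaling gave 172 DEGs with *CT010467.1* kept and 173 with it left out too, the second fit chosen after the data were examined.

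Genes of the synapse and its channels were 4 of the 13 DEGs in the lists, all 4 increased, where 0.713% of all genes increased. These lists had 17 ionotropic and 7 metabotropic glutamate receptors, 17 postsynaptic genes and 12 GABA-A subunits tested. They also had 18 calcium and 8 sodium channel subunits and 20 vesicle release genes. The list medians lay between −0.28 and 0.06, so the lists as wholes did not share the increase. *Grin1* (chromosome 2 from 25291181 to 25319188), the obligatory subunit of the NMDA receptor, read 52.5, 48.9, 41.6 and 59.9 CPM in control mice 40 to 43 and 83.5, 181, 96.9 and 68.8 CPM in nPM mice 50 to 53. The 4 nPM mice were all above the controls, with nPM mouse 51 far above the other 3, and the log2 change was 1.03 ± 0.25 (SE, adjusted p = 0.367). It was the only DEG of 17 ionotropic glutamate receptor genes tested, whose median log2 change was −0.04 beside −0.01 over all genes, and its call was lost with the GC trend removed (0.70, adjusted p = 0.677). *Camk2b* (chromosome 11 from 5969644 to 6066363), a subunit of the calcium and calmodulin dependent kinase of the postsynaptic density, read 141, 131, 159 and 172 CPM in control mice 40 to 43 and 207, 200, 245 and 209 CPM in nPM mice 50 to 53. The groups did not overlap (log2 change 0.56 ± 0.14 SE, adjusted p = 0.384), and it was the 1 DEG of 17 postsynaptic scaffold and kinase genes, with a call that was lost without control mouse 40 or 41 and with the GC trend removed. *Cacnb1* (chromosome 11 from 98001508 to 98023035), the beta 1 subunit of voltage-gated calcium channels, read 23.6, 23.4, 15.9 and 34.8 CPM in control mice 40 to 43 and 42.4, 53.8, 56.8 and 57.4 CPM in nPM mice 50 to 53. Here too all nPM mice exceeded all controls, the log2 change was 1.18 ± 0.22 (SE, adjusted p = 0.265), and the change stayed called with the GC trend removed (0.83, adjusted p = 0.628) but not with the GC slope of each mouse as a covariate (0.60 ± 0.30 SE). It was 1 of 18 calcium channel subunits tested.

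*Slc32a1* (chromosome 2 from 158610767 to 158615749), the transporter that fills vesicles with GABA and a marker of inhibitory neurons, read 21.5, 13, 15.1 and 31 CPM in control mice 40 to 43 and 38.3, 41.9, 37 and 26.5 CPM in nPM mice 50 to 53. Control mouse 43 exceeded nPM mouse 53, and the call (log2 change 0.92 ± 0.27 SE, adjusted p = 0.384) was lost in 6 of the 8 fits that left out 1 mouse, those without control 40, 41 or 42 and without nPM 50, 51 or 52. It was also lost with the GC trend removed (0.54, adjusted p = 0.746). It was the 1 DEG of 20 genes of synaptic vesicle release and of 12 inhibitory neuron markers. No DEG was found among 12 GABA-A receptor subunits, whose median log2 change was −0.28 and went to −0.07 with the GC trend removed. *Gabra4* read 114 to 125 CPM in controls and 79.2 to 123 CPM with nPM. The metabotropic glutamate receptors (7 tested) and sodium channel subunits (8 tested) had no DEG either, and *Grm4*, the metabotropic receptor with the smallest p (adjusted p = 0.695), overlapped between the groups.

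**Figure D2:**
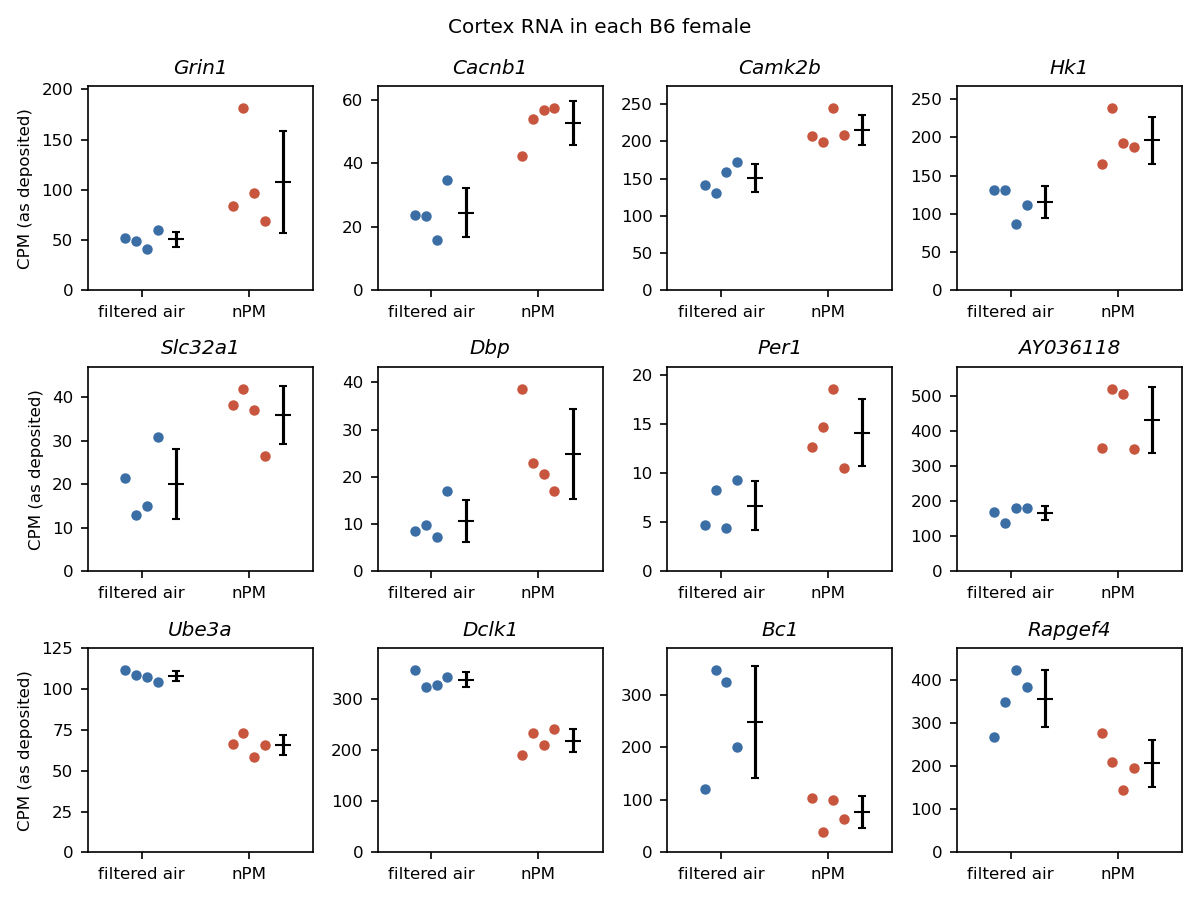
Deposited values (CPM, y axis from 0) of 12 DEGs in each of the 4 filtered air (blue) and 4 nPM (red) B6 females, with the mean and SD beside each group. *Grin1*, *Cacnb1*, *Camk2b*, *Hk1*, *Per1* and *AY036118* are higher in every nPM mouse, *Ube3a*, *Dclk1* and *Bc1* are lower in every nPM mouse, and *Slc32a1*, *Dbp* and *Rapgef4* overlap.

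*Hk1* (chromosome 10 from 62268855 to 62379909), the hexokinase that starts glycolysis in brain, read 132, 131, 87.2 and 111 CPM in control mice 40 to 43 and 165, 238, 192 and 188 CPM in nPM mice 50 to 53. The nPM mice were all above the controls (log2 change 0.81 ± 0.17 SE, adjusted p = 0.265), and it was the 1 DEG of 16 HIF1A and hypoxia targets tested, whose median log2 change was 0.04. *Mink1* (chromosome 11 from 70562881 to 70614484), a kinase of the JNK pathway, read 34.5, 55, 25.6 and 49.2 CPM in control mice 40 to 43 and 109, 63.6, 109 and 90.8 CPM in nPM mice 50 to 53. Its groups did not overlap, with a log2 change of 1.24 ± 0.24 (SE, adjusted p = 0.265). *Dnal4* (chromosome 15 from 79761453 to 79777850), an axonemal dynein light chain, read 8.45, 11.6, 9.84 and 8.06 CPM in control mice 40 to 43 and 18.7, 17.7, 37.8 and 26.3 CPM in nPM mice 50 to 53. The gap between the groups was wide and the log2 change was 1.35 ± 0.27 (SE, adjusted p = 0.265).

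*Sez6l2* (log2 change 0.90 ± 0.19 SE, adjusted p = 0.265), a neuronal membrane protein, *Sec14l2* (0.97 ± 0.21 SE, adjusted p = 0.265), a lipid binding protein, and the predicted gene *Gm45234* (2.21 ± 0.47 SE, adjusted p = 0.265) also had all 4 nPM mice above the controls. *Prokr2* (1.76 ± 0.37 SE, adjusted p = 0.265), a prokineticin receptor, had about 3 estimated reads in its lowest mouse. Its call was lost without nPM mice 50 and 51 (log2 change 1.25). *Sez6l2* lost its call with the GC trend removed (adjusted p = 0.677).

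*Ube3a* (chromosome 7 from 59228750 to 59311537), an imprinted ubiquitin ligase whose loss in neurons causes Angelman syndrome, read 112, 108, 107 and 104 CPM in control mice 40 to 43 and 66.3, 73.1, 58.1 and 65.4 CPM in nPM mice 50 to 53. The 4 controls lay within a narrow band and all nPM mice were below it, with a log2 change of −0.67 ± 0.14 (SE, adjusted p = 0.265). With the GC trend removed the change was −0.38 and no longer called (adjusted p = 0.677). *Dgcr8* (chromosome 16 from 18253948 to 18289247), the partner of Drosha in microRNA processing, read 20.7, 23.9, 15.6 and 26.2 CPM in control mice 40 to 43 and 5.83, 6.78, 11.8 and 8.7 CPM in nPM mice 50 to 53. All nPM mice were below all controls (log2 change −1.31 ± 0.28 (SE, adjusted p = 0.265)), and the call held with the GC trend removed (−1.21, adjusted p = 0.628).

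*Dclk1* (chromosome 3 from 55242364 to 55539069), a microtubule binding kinase related to doublecortin, read 356, 324, 328 and 342 CPM in control mice 40 to 43 and 191, 234, 209 and 241 CPM in nPM mice 50 to 53. It separated the groups with little spread in either, and the log2 change was −0.59 ± 0.13 (SE, adjusted p = 0.265). *Bc1* (chromosome 7 from 144914470 to 144914638), a small noncoding RNA of dendrites that represses translation, read 120, 347, 324 and 200 CPM in control mice 40 to 43 and 104, 39.6, 99.8 and 62.7 CPM in nPM mice 50 to 53. The highest nPM mouse was just below the lowest control, mouse 40, and the log2 change was −1.62 ± 0.34 (SE, adjusted p = 0.265). *Yaf2* (log2 change −0.78 ± 0.16 (SE, adjusted p = 0.265)), a Polycomb associated factor, and *Mtdh* (−0.76 ± 0.16 (SE, adjusted p = 0.265)), an RNA binding and signalling protein, fell in all 4 nPM mice. *Gm45507* (log2 change −1.86 ± 0.35 (SE, adjusted p = 0.265)), listed as antisense, and the pseudogene *Gm47099* (−1.77 ± 0.38 (SE, adjusted p = 0.265)) also fell. Both are uncertain, the first because it is not stated whether strand was used in counting, and the second because its reads may match a source gene.

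*Ppp3r2* (log2 change −1.75 ± 0.38 (SE, adjusted p = 0.265)), a regulatory subunit of calcineurin, also fell in each nPM mouse. *Pakap* (log2 change −2.89 ± 0.62 (SE, adjusted p = 0.265)) read 6.66, 4.45, 28.7 and 7.18 CPM in control mice 40 to 43 and 0.132, 0.158, 1.02 and 3.34 CPM in nPM mice 50 to 53. Control mouse 42 lay far above the other controls, the lowest nPM value rested on about 3 reads, and the call was lost without nPM mice 50 and 51 (log2 change −1.95).

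The clock list held 2 DEGs of 18 genes tested, both increased, where 0.713% of all genes increased and 0.469% decreased. At an unadjusted p under 0.05 (limma), 2 genes of the list increased and 2 decreased, where 5.77% and 4.66% of all genes did. *Dbp* (chromosome 7 from 45705088 to 45710204), a PAR bZIP factor that is a direct output of the clock, read 8.47, 9.82, 7.18 and 17.1 CPM in control mice 40 to 43 and 38.6, 23, 20.6 and 16.9 CPM in nPM mice 50 to 53. Control mouse 43 was slightly above nPM mouse 53, and the log2 change was 1.23 ± 0.32 (SE, adjusted p = 0.384). *Per1* (chromosome 11 from 69095217 to 69109961), a repressor of the clock's feedback loop, read 4.7, 8.35, 4.46 and 9.31 CPM in control mice 40 to 43 and 12.7, 14.7, 18.6 and 10.5 CPM in nPM mice 50 to 53. Its groups did not overlap, and the log2 change was 1.10 ± 0.32 (SE, adjusted p = 0.384). The median change over the list was −0.00, and both calls were lost with the GC trend removed (*Dbp* 0.86 and *Per1* 0.77) and without nPM mice 50 and 51. *Dbp* lost its call in 3 of the 8 fits that left out 1 mouse (control 40 or 42, nPM 50) and *Per1* in 5 (control 40 or 42, nPM 50, 51 or 52).

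The promoters of these genes are printed because clock factors act on them, as the 250 bases before and 50 after a RefSeq transcript start (GRCm38.p6), with the E-box CACGTG, bound by CLOCK and BMAL1, in capitals. The E-box reads the same on both strands and was found in 7.15% of 32851 such windows, and the cAMP response element TGACGTCA, also palindromic, in 1.79%.
*Dbp*, chr7:45704997-45705296, plus strand: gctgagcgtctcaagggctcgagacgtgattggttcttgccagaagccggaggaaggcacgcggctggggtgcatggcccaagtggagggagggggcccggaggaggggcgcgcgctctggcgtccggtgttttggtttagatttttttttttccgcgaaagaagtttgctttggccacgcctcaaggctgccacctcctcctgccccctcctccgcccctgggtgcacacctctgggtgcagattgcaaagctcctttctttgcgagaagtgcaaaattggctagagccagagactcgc
*Per1*, chr11:69098699-69098998, plus strand: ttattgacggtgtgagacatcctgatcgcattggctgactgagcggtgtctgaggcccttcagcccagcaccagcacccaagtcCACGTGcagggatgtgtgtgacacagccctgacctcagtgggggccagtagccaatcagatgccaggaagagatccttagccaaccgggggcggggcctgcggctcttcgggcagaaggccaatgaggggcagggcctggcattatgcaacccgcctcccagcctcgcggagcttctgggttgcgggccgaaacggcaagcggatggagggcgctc
The printed *Per1* window held 1 E-box and the *Dbp* window 0, and neither held the cAMP response element. *Per1* has another annotated start, not printed, whose window (chr11:69099902-69100201) held 0 E-boxes and 0 cAMP response elements.

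Other lists held single DEGs. *Rapgef4* (chromosome 2 from 71981240 to 72257475), a cAMP-activated exchange factor for RAP1, read 269, 350, 424 and 385 CPM in control mice 40 to 43 and 277, 210, 145 and 197 CPM in nPM mice 50 to 53. Control mouse 40 was below nPM mouse 50, the log2 change was −0.76 ± 0.20 (SE, adjusted p = 0.384), and the call was lost in 4 of the 8 fits that left out 1 mouse (control 42 or 43, nPM 52 or 53). It was the 1 DEG of 17 Rap and Ras genes, among which *Rap1a*, a small GTPase, read 13.3, 11.8, 16.9 and 16.5 CPM in control mice 40 to 43 and 12.4, 5.85, 5.93 and 11 CPM in nPM mice 50 to 53. The *Rap1a* groups overlapped through nPM mouse 50, and its change was not called (adjusted p = 0.443). The summed level of the 17 genes was 1155 to 1326 CPM in controls and 953 to 1078 CPM with nPM. Over the 26 lists of function, less the mitochondrial genes, and the 11 of cell types, 4 sums did not overlap between the groups. They were this sum and those of the CNC and small Maf factors, the astrocyte markers and the ribosomal and structured RNAs. All sums of lists are of the deposited values, without the TMM scaling used in the fits. The TMM scale, by which the fits divided values, was 1.01 in control mouse 43 and 0.975 in nPM mouse 52. Divided by it, the astrocyte sum of control mouse 43 falls below that of nPM mouse 52, so which sums stand apart rests on the scaling. Of single genes, 3.19% had all nPM mice above and 3.24% had all nPM mice below the controls.

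Of 72 cytosolic ribosomal protein genes, *Rpsa* increased (1.11 ± 0.28 SE, adjusted p = 0.384) and *Rps3a1* decreased (−1.01 ± 0.29 (SE, adjusted p = 0.384)), with a median over the list of −0.30. Both have processed pseudogenes in the genome, so that their uniquely mapped reads are a part of their RNA, and the values are uncertain. *Rpsa* lost its call without control 41 or nPM 52, and *Rps3a1* in 5 of the 8 fits that left out 1 mouse (control 41, 42 or 43, nPM 51 or 53). Both calls were lost without nPM mice 50 and 51, and that of *Rps3a1* also with the GC trend removed (−0.91, adjusted p = 0.677).

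Of 27 clustered protocadherin genes, which give neurons a surface identity, *Pcdhgc4* increased (2.73 ± 0.71 SE, adjusted p = 0.384). It read 3.67, 5.19, 5.45 and 9.47 CPM in control mice 40 to 43 and 19.9, 7.25, 153 and 99.7 CPM in nPM mice 50 to 53, with nPM mice 52 and 53 far above all others and nPM mouse 51 below control mouse 43, and its call was lost in 4 of the 8 fits that left out 1 mouse (control 40 or 42, nPM 52 or 53). Its last exons are shared with other members of the cluster.

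The antioxidant and inflammatory lists had no DEG. Of 32 NRF2 target enzymes tested, 4 increased and 3 decreased at an unadjusted p under 0.05, where 5.77% and 4.66% of all genes did, and the median log2 change was 0.01. *Gpx3*, an extracellular glutathione peroxidase, read 4.81, 4.67, 1.58 and 3.04 CPM in control mice 40 to 43 and 8.55, 8.35, 10.1 and 5.06 CPM in nPM mice 50 to 53 (adjusted p = 0.384). *Gstm1*, a glutathione transferase, read 30.4, 29.4, 27 and 32.7 CPM in control mice 40 to 43 and 39.1, 35.1, 75.1 and 42.3 CPM in nPM mice 50 to 53 (adjusted p = 0.389). In both the nPM mice were all above the controls. *Gclc*, the rate-limiting enzyme of glutathione synthesis, averaged 51.4 ± 7.51 CPM (SD, n = 4) in controls and 49.6 ± 3.15 CPM with nPM.

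The summed level of the CNC and small Maf factors was 116 to 131 CPM in controls and 137 to 162 CPM with nPM, which did not overlap. Among them, *Nfe2l2* averaged 16.5 ± 2.37 CPM (SD, n = 4) in controls and 12.3 ± 4.96 CPM in nPM mice, and *Nfe2l1* averaged 50.9 ± 5.06 and 60.0 ± 10.7 CPM, neither called. *Mafk*, a small Maf partner of NRF2, had the smallest p of that list (adjusted p = 0.391) and read 1.28 to 4.15 CPM in controls and 3.98 to 9.49 CPM with nPM. The NFKB subunits and inhibitors (12 tested) and NFKB target genes (13 of 27 tested) had medians of 0.12 and −0.15. *Nfkbia*, which encodes the inhibitor IκBα and is itself an NFKB target, read 6.9, 5.17, 3.41 and 5.29 CPM in control mice 40 to 43 and 11.4, 6.59, 10.2 and 7.91 CPM in nPM mice 50 to 53 (adjusted p = 0.429), and only nPM mouse 51 was below a control. *Nfkb1* averaged 3.41 ± 1.04 CPM in controls and 4.17 ± 1.05 CPM with nPM, at 24 or more estimated reads per mouse.

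Axon guidance genes (37 tested) had no DEG and a median of 0.14, which went to −0.03 with the GC trend removed. The smallest p-values were those of *Unc5a*, a netrin receptor, at 15.3 to 30.9 CPM in controls and 28.9 to 42.7 CPM with nPM (adjusted p = 0.384), and *Epha8*, an ephrin receptor, at 0.696 to 1.92 CPM and 2.68 to 2.90 CPM (adjusted p = 0.384). Amyloid and tau genes (16 tested) had no DEG. *App*, the amyloid precursor, read 588 to 709 CPM in controls and 722 to 879 CPM with nPM (adjusted p = 0.459), and *Ide*, a protease of amyloid peptides, 29.8 to 39.8 CPM and 9.85 to 29.5 CPM (adjusted p = 0.408). In both the groups did not overlap. *Mmp24*, a membrane metalloprotease of synapses, read 11.7 to 21.0 CPM in controls and 20.9 to 26.3 CPM with nPM (adjusted p = 0.388).

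The lists of immediate early genes (15 tested), AMPK and mTOR signalling (20), the Ahr pathway (5), chaperones (20), proteasome subunits (30) and nuclear OXPHOS subunits (69) also held no DEG, with medians between −0.08 and 0.24. Genes with the smallest p in 5 of these lists were *Egr3* (adjusted p = 0.43), *Rptor* (adjusted p = 0.477), *Dnajc15* (adjusted p = 0.515), *Psmb7* (adjusted p = 0.384) and *Uqcrc1* (adjusted p = 0.384). In *Psmb7*, a catalytic proteasome subunit, every nPM mouse was below every control. In *Uqcrc1*, a core subunit of complex III, every nPM mouse was above. Over all 26 lists of function and 11 of cell types, 13 of the 622 genes tested were DEGs, 11 increased and 2 decreased, where 0.713% and 0.469% of all genes were.

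**Figure D3:**
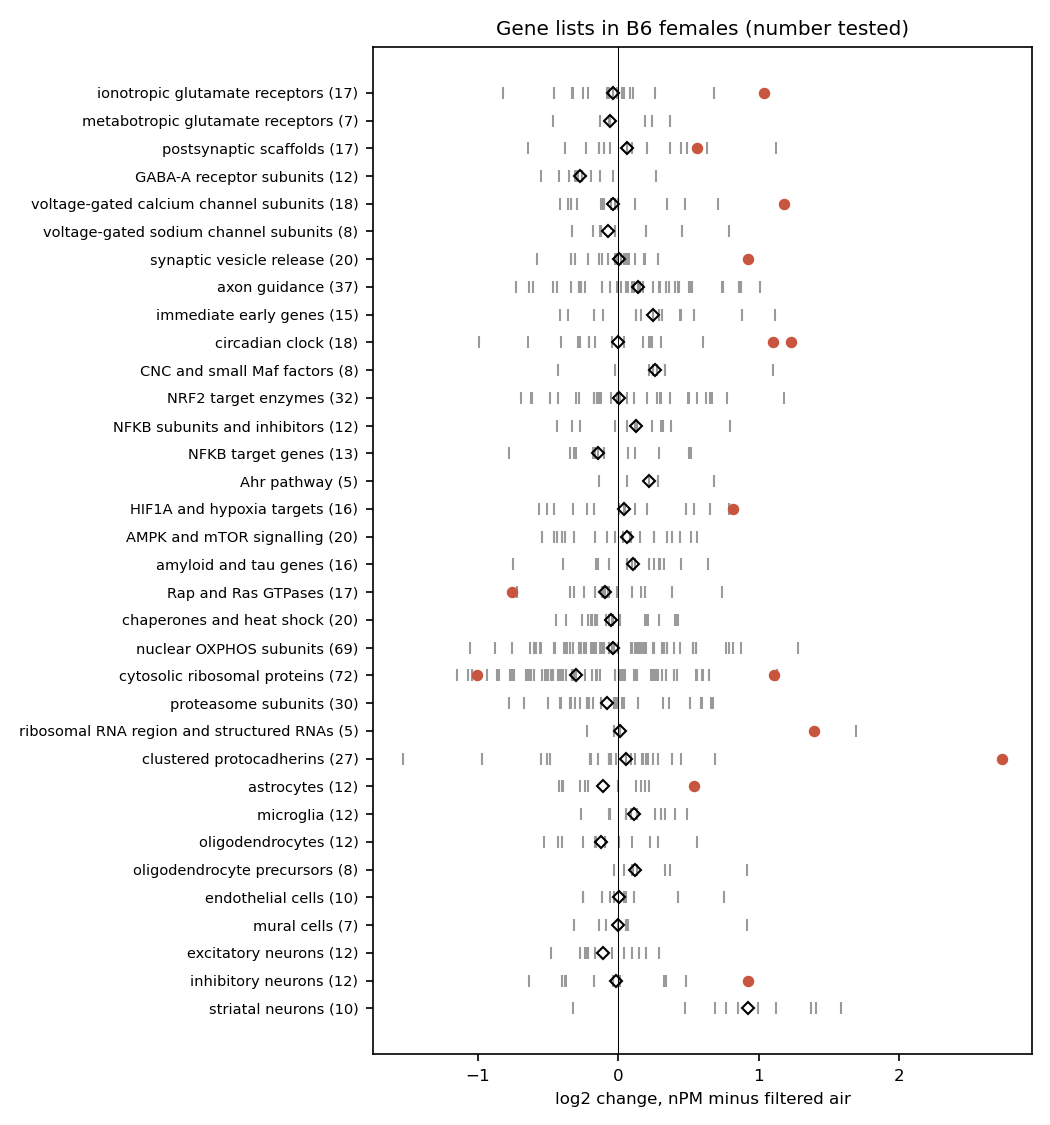
Log2 change of nPM minus filtered air (x axis) for the members of each list tested in B6 females, with the number tested in parentheses. Grey ticks are genes that were not called, red circles are DEGs and open diamonds are list medians, and lists with fewer than 5 genes tested are left out. The striatal marker list has the highest median, 0.92, with no DEG.

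The 11 lists of cell type markers held 2 DEGs, *Slc32a1* of inhibitory neurons and *Aldoc*. *Aldoc*, a glycolytic enzyme of astrocytes, was the 1 DEG of 12 astrocyte markers, at 262, 267, 215 and 297 CPM in control mice 40 to 43 and 297, 353, 472 and 353 CPM in nPM mice 50 to 53 (log2 change 0.53 ± 0.16 SE, adjusted p = 0.384), with control mouse 43 and nPM mouse 50 nearly equal. This call was lost in 6 of the 8 fits that left out 1 mouse (control 40, 41 or 42, nPM 51, 52 or 53). The summed deposited values of the astrocyte markers were 3627 to 4052 CPM in controls and 2889 to 3532 CPM with nPM, a gap that does not hold after TMM scaling. The median log2 change of these 12 markers was −0.11, and 6 of them had a positive change. Microglia (12 tested), oligodendrocytes (12), their precursors (8), endothelial cells (10), mural cells (7) and excitatory neurons (12) had no DEG, and the summed microglia markers were 229 to 243 CPM in controls and 223 to 312 CPM with nPM.

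Markers of striatal neurons, which lie beneath the cortex, had the highest median of any list at 0.92 (10 tested, no DEG). Their summed level was 275, 117, 891 and 711 CPM in control mice 40 to 43 and 1300, 357, 988 and 571 CPM in nPM mice 50 to 53. The groups overlapped, and the level varied widely within each group. *Penk*, the precursor of enkephalin, read 60.8, 19.4, 183 and 161 CPM in control mice 40 to 43 and 322, 78.6, 291 and 191 CPM in nPM mice 50 to 53 (adjusted p = 0.459), in nearly the same order of mice as the list. How much striatum a sample held and its part in the other results were not tested. No choroid plexus gene had reads in all 8 mice.

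The same genes were then followed in the males of the same exposure, which share no mouse with the females. *AY036118*, the only gene that passed 5% FDR, could not be followed. It did not have reads in every male by the rule used, was not measured in *APOE*-TR females and was not tested for a sex difference. *CT010467.1*, which spans it, averaged 2524 CPM in control males and 2318 CPM in nPM males (log2 change 0.02 ± 0.73 SE). Of the increased DEGs, 53 of 99 measured in B6 males were higher with nPM in males (53.5%, against 52.4% of all genes), and of the decreased DEGs 21 of 65 were lower (32.3%, against 47.6% of all genes). The males' median log2 changes were 0.02 for the increased and 0.11 for the decreased DEGs, and the medians of all genes by GC group lay between 0.01 and 0.03. *Cacnb1* changed by 0.29 ± 0.24 (SE, log2) in males, *Grin1* by 0.22 ± 0.18 and *Dclk1* by 0.25 ± 0.17, the last opposite to the females.

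The difference of the response between the sexes was tested over the 16 B6 mice. It was called for 120 of 13839 genes (0.867%, limma, unadjusted p under 0.005), 55 with a higher response in females, and none passed 5% FDR (smallest adjusted p = 0.510, limma; 1181 genes at an unadjusted p under 0.05). Of 164 DEGs of females in that fit, 33 were called for the difference, all in the direction of the female change, a count that rests on the same females. Without control 41 the difference was called for 76 genes. *Rnf6*, a ubiquitin ligase, and the pseudogene *Gm10222* had the smallest p among genes with a lower response in females, and *Cacna2d2*, a calcium channel subunit, and the pseudogene *Rpsa-ps11* among genes with a higher one. *Rnf6* averaged 44.4 CPM in control and 28.7 CPM in nPM females, and 17.0 and 26.7 CPM in control and nPM males (difference −1.25 ± 0.28, adjusted p = 0.510, limma).

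In *Rnf6*, itself no DEG, the female controls stood apart from all 12 other B6 mice, and this held for many DEGs. Of the 99 increased DEGs measured in all 16, the 4 female controls were below each of the 12 other mice in 45. Of the 65 decreased DEGs they were above each of them in 35. The nPM females were beyond all other mice, in the direction of their change, in 1 and 2. Over all 13839 genes the female controls were above the 12 others in 220 genes and below them in 188. Those numbers were 9 and 18 for nPM females, 24 and 43 for control males and 9 and 12 for nPM males. The DEGs were chosen with the same control females, and the counts over all genes were not.

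For the increased DEGs, the median level of control males exceeded that of control females by 1.10 on the log2 scale, beside 1.00 for nPM females and 1.15 for nPM males, and for the decreased DEGs the same medians were −0.84, −0.82 and −0.74 in that order. Control males were nearer to nPM females than to control females in 88 of the 99 increased and 50 of the 65 decreased DEGs, against 8825 of all 13839 genes. The sum of the deposited values was 628230 to 667150 per mouse in control females and 526602 to 599368 in the 12 others, and the ribosomal RNA region took 0.0529% to 0.124% in control females and 0.151% to 0.943% in the 12 others. An effect of filtered air against nPM in females and a property of the 4 control females as a set cannot be told apart from these mice, and the labels name no library batch.

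**Figure D4:**
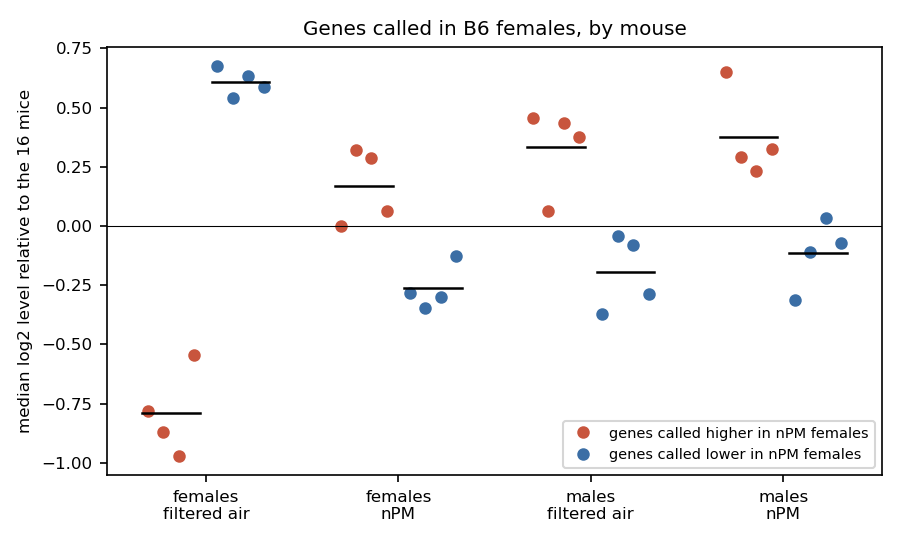
Median log2 level, relative to the mean of the 16 B6 mice, of the 99 increased (red) and 65 decreased (blue) DEGs of B6 females in each mouse (points; bars are group means of 4). Female controls lie at −0.97 to −0.55 for increased and 0.54 to 0.67 for decreased DEGs, while nPM females and both groups of males overlap.

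The GC slope, taken relative to the 16 mice, was −0.50 to −0.27 log2 units per 10 points of GC in control females, −0.32 to 0.09 in nPM females, 0.03 to 0.36 in control males and 0.17 to 0.45 in nPM males. The females thus lay lower than the males in both exposures but for nPM mouse 52, which exceeded control male 2, and control females were lowest but for nPM mouse 50.

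**Figure D5:**
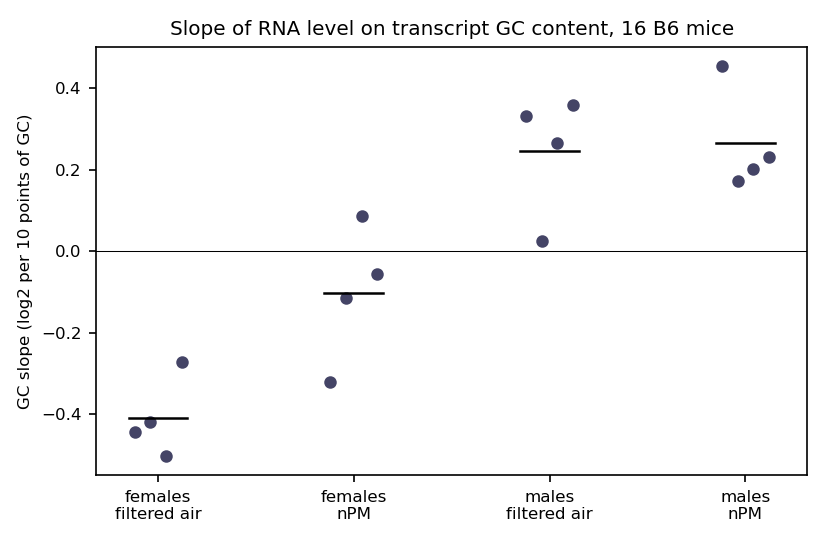
Slope of log2 level on transcript GC content (log2 per 10 points of GC, y axis) in each of the 16 B6 mice, relative to their mean, with bars at the mean of each group of 4. The control females are at −0.50 to −0.27 and the nPM females at −0.32 to 0.09.

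In *APOE*3 females, exposed apart for 15 weeks, 70 of 87 increased DEGs of B6 females were higher with nPM (80.5%). Of the decreased DEGs, 42 of 60 were lower, where 52.2% of all genes were higher. The *APOE*3 groups did not overlap, in the direction of the B6 females, for 0 increased and 0 decreased DEGs. In the opposite direction they did not overlap for 2 increased and 2 decreased DEGs. Over all 11520 genes measured, the groups did not overlap for 446 higher and 349 lower genes. Those mice had a GC trend of the same direction, in which 2 controls stood apart, with slopes of −0.53 and −0.33 log2 units per 10 points of GC against −0.07 to 0.30 in the 6 other mice. The medians by GC group went from −0.20 to 0.29, and of all genes in the highest GC group 70.7% were higher and of those in the lowest 75.6% were lower. *Grin1* changed by 1.16 ± 0.53 (SE, log2) and *Cacnb1* by 0.86 ± 0.47 in *APOE*3 females, each with overlapping groups. In *APOE*4 females the medians by GC group lay between −0.01 and 0.02. There 57 of 87 increased DEGs were higher (65.5%) and 34 of 60 decreased DEGs lower (56.7%), with median changes of 0.04 and −0.02. Of all genes, 50.8% were higher and 49.2% lower. The *APOE*4 groups did not overlap for 2 increased and 2 decreased DEGs, all lower with nPM. Over all 11526 genes measured, they did not overlap for 194 higher and 212 lower genes. *Grin1* changed there by 0.10 ± 0.10 and *Cacnb1* by 0.14 ± 0.12.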

How the data were processed

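Cortex RNA of 48 mice was sequenced from stranded mRNA libraries, and per the methods and the submitters' processing notes the authors mapped unique reads to mm10 (GRCm38) with TopHat2 2.0.8b and quantified them in Partek. The deposited values are CPM per gene and mouse, made by the authors on a scale that is not stated, with sums between 539695 and 667150 in the 8 B6 females. The lowest value of each column was read as a gene without reads, and a gene was tested where every value exceeded 1.5 times it. In B6 columns 87.7% to 98.4% of low values were whole multiples of it (within 0.1), so whole reads were not recovered in every column, no count test was run there, and reads are estimates. 1 *APOE*3 female control column, whose animal number matches no sample, was used by the group in its label.

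Values were scaled by TMM (edgeR 4.0.16), taken as log2 with 0.5 CPM added, and tested with limma 3.58.1 in R 4.3.3 (eBayes with a trend) on 4 control and 4 nPM mice. DEGs had an unadjusted p under 0.005, and adjusted p-values are Benjamini-Hochberg. Fold changes are on the log2(CPM + 0.5) scale and understate those of low genes. Single values per mouse were tested by two-sided exact permutation. GC content was matched by symbol for 99.3% of genes tested. The code was tested on simulated data. Lists and members were chosen with earlier results of these data known. Named genes were, at a mean of at least 1 CPM, the 10 increased and the 10 decreased genes of lowest p, DEGs in the lists, up to 2 members of lists without DEGs, genes named in the paper, label checks, rRNA genes and, for the sex difference, 2 in each direction. The mitochondrially encoded genes were not analysed here. Where nothing shows separate litters, p-values measure the spread between these mice only. Some genes and sequences are not reported here.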

Additional observations from a re-analysis of the deposited data

Results flagged for a closer look

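The estimated depth of nPM mouse 53, 4.83 M reads, lay far below the 15.2 M to 16.5 M of the other 3 nPM mice (gap over range 0.892, above the critical value of 0.829 for 4 samples). *Pakap* read 28.7 CPM in control mouse 42 against 4.45 to 7.18 CPM in the other controls (0.887). In controls, *Mafk* was low in mouse 42 (1.28 against 3.75 to 4.15 CPM, 0.858), *Dnajb1* low in mouse 43 (17.0 CPM against at least 22.1 CPM in the others, 0.841), *Aspa* low in mouse 41 (5.37 against 8.81 to 9.30 CPM, 0.875) and *Cacna2d2* high in mouse 43 (26.9 against 13.7 to 15.5 CPM, 0.866). These were 6 of 184 groups of 4 tested, where chance marks about 1 in 20.

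The nPM response differed between B6 females and males at an unadjusted p under 0.005 for 13 named genes (limma on 16 mice, adjusted p-values between 0.510 and 0.541). Over all genes, 120 of 13839 (0.867%) were called. The count of 13 is no test, since 2 genes in each direction were named by this same fit and others as DEGs of the same females. The control females, which stood apart from the other B6 mice, enter this contrast. Differences are in log2 as female minus male. Higher in females were the responses of *Cacna2d2* (1.98), *Rpsa-ps11* (1.65), *Slc32a1* (1.74) and *Gpx3* (2.90). Lower in females were those of *Rnf6* (−1.25), *Gm10222* (−1.78), *Yaf2* (−0.97), *Bc1* (−2.60), *Dgcr8* (−1.26), *Dclk1* (−0.85), *Mtdh* (−0.94), *Xiap* (−1.25) and *Cux2* (−1.24). *Bc1* had log2 changes of −1.62 in females and 0.96 in males, *Slc32a1* 0.92 and −0.83, and *Gpx3* 1.18 and −1.74.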

How the results depend on the processing

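The count of 174 DEGs in B6 females was 432 with sample quality weights, 115 with estimated depth as a covariate, 101 with the GC trend removed in each mouse and 542 without the nPM mice 50 and 51, the last 2 chosen after the data were examined. Leaving out 1 mouse at a time gave 78 (without control 40) to 322 (without nPM 50), with 82 without control 41 and 90 without control 42. The split was 80 increased and 105 decreased without TMM, 87 and 93 without a filter on low values, 53 and 95 with the GC slope as a covariate and 80 and 85 without nPM 52. Pseudocounts of 0.1 and 2, median-of-ratios factors, at least 1 CPM, voom, spread shared over 16 mice, structured RNAs left out (with and without *CT010467.1*), any value above the lowest, and the GC slope as a covariate gave between 148 and 186, with 16 of the 174 called under the last. The 120 genes called for the difference between the sexes became 204 with sample quality weights and 200 without the nPM mice 50 and 51, and 76 (without control 41) to 163 (without nPM 50) as single females were left out. None of the 36 named values changed direction in 831 refitted values, 102 lost their call and 3 gained one. *AY036118* lost its call with spread shared over 16 mice, and no gene passed 5% FDR in 6 of the 8 fits that left out 1 mouse, without a filter, or with depth or the GC slope as a covariate. No paired analysis was possible because control and nPM mice share no replicate numbers. edgeR and DESeq2 on recovered reads were not run for B6 mice, since only 88.1% to 93.4% of low values were whole in control mice 40, 41 and 43 and nPM mouse 53. In *APOE*-TR females 96.4% to 97.1% of low values were whole, and edgeR's quasi-likelihood test, added after the data were examined, called 122 genes in *APOE*3 and 41 in *APOE*4 females (p under 0.005, 0 at 5% FDR). At the depth of nPM mouse 53, low genes were measured with little precision.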

Other observations

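The DEGs that are not protein coding numbered 13 of the 105 increased and 11 of the 69 decreased. Among them, the pseudogene *Gm10222* (chromosome 1 from 24612407 to 24612701, mm10) averaged 1122 ± 249 CPM (SD, n = 4) in control females and 489 ± 218 CPM in nPM females, beside 427 CPM in control males and 660 CPM in nPM males. *Rpsa-ps11*, a processed pseudogene of *Rpsa*, averaged 12.6 ± 4.51 CPM in control and 28.5 ± 7.81 CPM in nPM females, beside 99.3 CPM in control and 71.5 CPM in nPM males. Reads of a pseudogene and its source gene cannot be told apart where their sequences match.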
